A study of Drosophila melanogaster with 4 samples.

Results

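The comparison set the line LU.10580.tg2 against the line LU.10580/CAG of Drosophila melanogaster, called tg2 and CAG here, at the pharate adult stage. A pharate adult is a finished fly that has not yet left its pupal case. Total RNA of each line, freed of ribosomal RNA, had been read on an Illumina instrument as paired ends, and the authors deposited 1 FPKM value per locus and library, that is fragments scaled to the length of the locus and to the size of the library. The lines LU.10580hom and LU.10580.tg1, called hom and tg1, were the other 2 of the 4 libraries, and each line had 1 library. The labels explain neither the line names nor a genotype, an insertion, a promoter or the sex of the animals. The values of CAG stand under the heading het. All 4 names share LU.10580, and no source used here says whether this is 1 insertion or 1 parental stock.

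The difference was taken as log2(FPKM + 1) in tg2 minus log2(FPKM + 1) in CAG, so a negative value means lower in tg2. Tested were the 10051 loci that carry a single gene name and average 1 FPKM or more across the 4 files, of 12066 single-name loci and 13866 loci in all. A difference of 1 or more in size counts as a call, which is 2-fold on the FPKM + 1 scale, and every fold below is on that scale. Since each line has a single library, every difference stands without replicates and without a p-value. At the edge of the filter, CG11413 with a mean of 1.00 FPKM was inside and Oseg6 with a mean of 0.996 was outside. At the edge of the call, CG14079 (0.459 FPKM in CAG and 1.93 in tg2, 1.01) and CG17777 (44.3 and 21.6) were inside, while CG31870 (148 and 297) and Lsp1alpha (193 and 96.3) fell just short of it. Of the tested loci 4321 have the same span as another locus in the files and 121 carry a name that stands at more than 1 locus, and fragments may be split among such loci. Among the genes below a shared span holds for Acp95EF, Sfp87B, Acp36DE, Spn3, Adh, Lectin-galC1, LvpH, Ilp3 and Ctr1B. It also holds for Sfp33A2, Spn27A, MtnA, nimC2, Dgk and TpnC4, and for others where it is said. This list may not be complete.

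Several tissues finish their development at this stage. Epidermal cells lay down and harden the adult cuticle, the flight muscles and the eye are complete, and the larval fat body still holds storage proteins. In males the accessory glands and the ejaculatory duct and bulb begin to make seminal fluid, a mixture of secreted peptides, protease inhibitors, lectins and lipases that reaches the female with the sperm. The RNA of whole animals mixes all of these, so fewer cells of a type and less RNA per cell cannot be told apart in any result below.

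The libraries were alike in breadth, with 11380 to 11659 loci at 1 FPKM or more and a median of 11.1 to 11.6 FPKM over the tested loci. Steps between the lowest values put the depth of tg2 at 1.16 times that of CAG, an estimate that only 62 of 205 low loci met within 3%. Adult flight muscle and eye transcripts were high in every library, with the flight muscle actin Act88F at 5719, 5162, 6336 and 6415 FPKM in CAG, hom, tg1 and tg2 and the opsin gene ninaE at 919, 747, 826 and 962 FPKM in the same order. The male dosage compensation RNA roX1 was present in all 4 libraries at 229 FPKM or less, with 190.5 in CAG and 206 in tg2. Of 11 tested loci for sex determination and dosage compensation 0 were called (against 3.65% of all tested loci), and their median difference was −0.05. The yolk protein gene Yp1, a marker of adult females, was below the filter with 0.514 FPKM in CAG and 0.704 in tg2. Yp2, which passed it, had 2.18 FPKM in tg2 against 0.949 in CAG, with 0.787 in hom and 2.30 in tg1. Its difference of 0.71 was the largest of the 11 and was 0.27 with a pseudocount of 5.

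Against CAG, 162 of the 10051 loci were called higher in tg2 (1.61%) and 205 lower (2.04%), which together is 3.65% of the tested loci. The median difference was −0.02, and 84.4% of the loci lay within 0.5 of no difference. Of all tested loci 4719 lay above 0 and 5322 below. The highest library was tg2 at 30.2% of the tested loci, hom at 28.6%, CAG at 25.4% and tg1 at 15.7%. Differences of 2 or more were rarer, at 36 loci higher and 66 lower. Of the called loci 16 higher and 26 lower had a value of 0 in 1 of the 2 libraries. Among protein-coding loci with no 0 in any library 126 of 9632 were called higher (1.31%) and 164 lower (1.7%). The share called was largest at the ends of the expression range, 6.04% for mean levels of 1 to 2 FPKM and 6.97% at 100 FPKM or more, against 2.64% between 5 and 20 FPKM.

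The hom and tg1 libraries took no part in the difference and show which of the 2 lines departed from the rest. CAG lay at least 1 away from each of the other 3 libraries at 71 of the 205 loci called lower and at 31 of the 162 called higher. tg2 lay that far from the other 3 at 46 of the lower and 34 of the higher loci. At 15 lower and 12 higher loci tg1 lay with tg2 and hom with CAG, and at 6 and 6 hom lay with tg2 and tg1 with CAG. The remaining 67 lower and 79 higher loci met none of these patterns. Over all tested loci CAG stood above the other 3 at 0.706% and below at 0.308%, and tg2 stood above at 0.338% and below at 0.458%. For hom the shares were 0.627% above and 0.667% below, and for tg1 0.0995% and 0.119%. The comparison of tg1 with hom, which shares no library with this one, called 306 loci (3.04%). The 2 sets of calls shared 89 loci, which is 24.3% of the calls of tg2 against CAG and 29.1% of those of tg1 against hom.

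**Figure D1:**
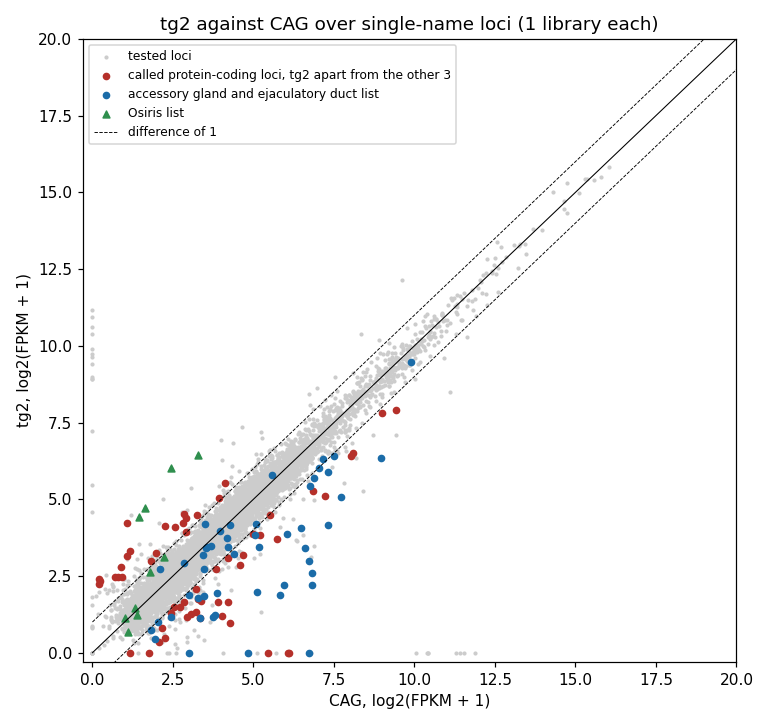
Level of each tested locus in CAG (horizontal axis) and tg2 (vertical axis), both log2(FPKM + 1) with 1 library a line; the solid line marks equal values and the dashed lines a difference of 1. Accessory gland loci (blue) lie below the diagonal at 46 of 50, 4 of 10 Osiris loci (green) lie above the upper dashed line, and called protein-coding loci at which tg2 stood apart (red) lie on both sides.

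Genes for seminal fluid had the lowest median of the lists in tg2, except that with a filter of 5 FPKM the maltases lay lower (−1.36 against −1.29). Of 57 single-name loci of the accessory gland, ejaculatory duct and ejaculatory bulb 50 passed the filter and 7 did not. Of the 50, 34 were called lower in tg2 and 0 higher (68% lower, against 2.04% of all tested loci), and 46 lay below 0. Their median difference was −1.31, against −0.02 over all tested loci. These 34 made up 16.6% of all loci called lower. The group was chosen knowing that such genes were high in CAG, so its direction is a description.

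At most of these loci CAG was the library that differed. CAG was the highest of the 4 libraries at 43 of the 50 loci (25.4% over all tested loci). At 24 of the 34 called ones it lay at least 1 above each other library. Summed over the 50 loci, the level was 1521 FPKM in tg2 and 3931 in CAG, while hom had 1513 and tg1 1860.3. Without PebIII, the most abundant member, the sums were 818 FPKM in tg2 and 2973 in CAG, while hom had 624 and tg1 980.2. CAG was far above the other 3, and among those tg1 was the highest.

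The ejaculatory bulb makes proteins of the mating plug, and genes for these were among the largest differences. Peb, at 2R:21062864 to 21064238, had 3.65 FPKM in tg2 against 112 in CAG, with 8.08 in hom and 12.7 in tg1, a difference of −4.61 or 24.4-fold lower in tg2. Its neighbour PebII (2R:21061320 to 21061729) had 2.72 FPKM in tg2 against 55.2 in CAG, with 4.80 in hom and 6.19 in tg1, 15.1-fold lower. Both were high in CAG alone, and tg2 was the lowest library at each. The seminal fluid gene Sfp60F, next to them at 2R:21059768 to 21060218, had 5.11 FPKM in tg2 against 112 in CAG, with 3.81 in hom and 21.2 in tg1, 18.4-fold lower in tg2 than in CAG. PebIII, named for the same organ and elsewhere on the arm, was the most abundant of the list and did not follow, with 703 FPKM in tg2 against 959 in CAG, with 888 in hom and 880.1 in tg1 and a difference of −0.45.

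The sex peptide and its relative Dup99B, which change the behaviour of the female after mating, were also low in tg2. The sex peptide is the product of Acp70A (3L:13294735 to 13295022), whose level was 9.56 FPKM in tg2 against 96.2 in CAG, with 19.1 in hom and 13.8 in tg1, a difference of −3.20. Dup99B, made in the ejaculatory duct, had 15.9 FPKM in tg2 against 88.6 in CAG, with 11.5 in hom and 21.8 in tg1, a difference of −2.41. CAG stood clear of the other 3 at both. Just before Acp70A along 3L the pattern was the same. The level of CG42481 (3L:13291895 to 13292122) was 37.7 FPKM in tg2 against 340.5 in CAG, with 43.1 in hom and 38.3 in tg1, 8.83-fold lower in tg2, and Sfp70A4 at 3L:13289756 to 13289960 had 33.7 FPKM in CAG and 2.90 in tg2 and was listed at 0 in hom. CAG was again the high library at both.

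Other secreted peptides of the glands were also highest in CAG. Acp95EF had 80.5 FPKM in tg2 against 500.0 in CAG, with 77.8 in hom and 115 in tg1, 6.15-fold lower in tg2. Mst57Db, an accessory gland peptide gene, had 32.4 FPKM in tg2 against 212 in CAG, with 23.6 in hom and 49.4 in tg1, 6.37-fold lower. Acp36DE, which is needed for sperm storage, had 9.95 FPKM in tg2 against 35.3 in CAG, with 10.7 in hom and 16.7 in tg1, 3.32-fold lower. At each of these CAG was high and tg2 was close to hom and tg1. The Acp53 peptides lay nearer to the call, with Acp53C14a at −1.44, Acp53C14b at −1.08 and the uncalled Acp53Ea at −0.88, and at Acp53C14a tg1 (85.5 FPKM) lay between CAG (159) and tg2 (57.99).

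The Sfp genes ranged from strong differences to none. Sfp87B had 6.93 FPKM in tg2 against 106 in CAG, with 4.02 in hom and 8.34 in tg1, a difference of −3.75. Sfp24Bb had 3.59 FPKM in tg2 against 60.3 in CAG, with 4.33 in hom and 4.67 in tg1, −3.74, but 5 loci share its span on 2L and fragments can be split among them. Sfp36F had 105 FPKM in CAG, and the other 3 libraries list it at 0. The antibacterial peptide of the ejaculatory duct, Anp (andropin), had 27.2 FPKM in CAG, 1.18 in hom and 0.824 in tg1 and was listed at 0 in tg2. A value of 0 may stand for an estimate that failed, since the proteasome gene Prosalpha1 is listed at 0 in all 4 libraries, so no fold is given for these 2 loci.

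Of the 50 loci 16 were not called, and 4 lay above 0. CG15841 (Acp33A) had 54.1 FPKM in tg2 against 46.9 in CAG, with 9.29 in hom and 25.4 in tg1, so tg2 was the highest library there and hom the lowest. Sfp33A2 lay highest among the list at 0.67, with 10.4 FPKM in CAG and 17.1 in tg2, but 9 loci share its span. Est-6, the esterase of the ejaculatory duct, had 17.1 FPKM in tg2 against 18.2 in CAG, with 15.5 in hom and 25.8 in tg1, and Acp32CD had 14.5 in CAG and 14.5 in tg2. At these last 2 loci CAG and tg2 were nearly equal.

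**Figure D2:**
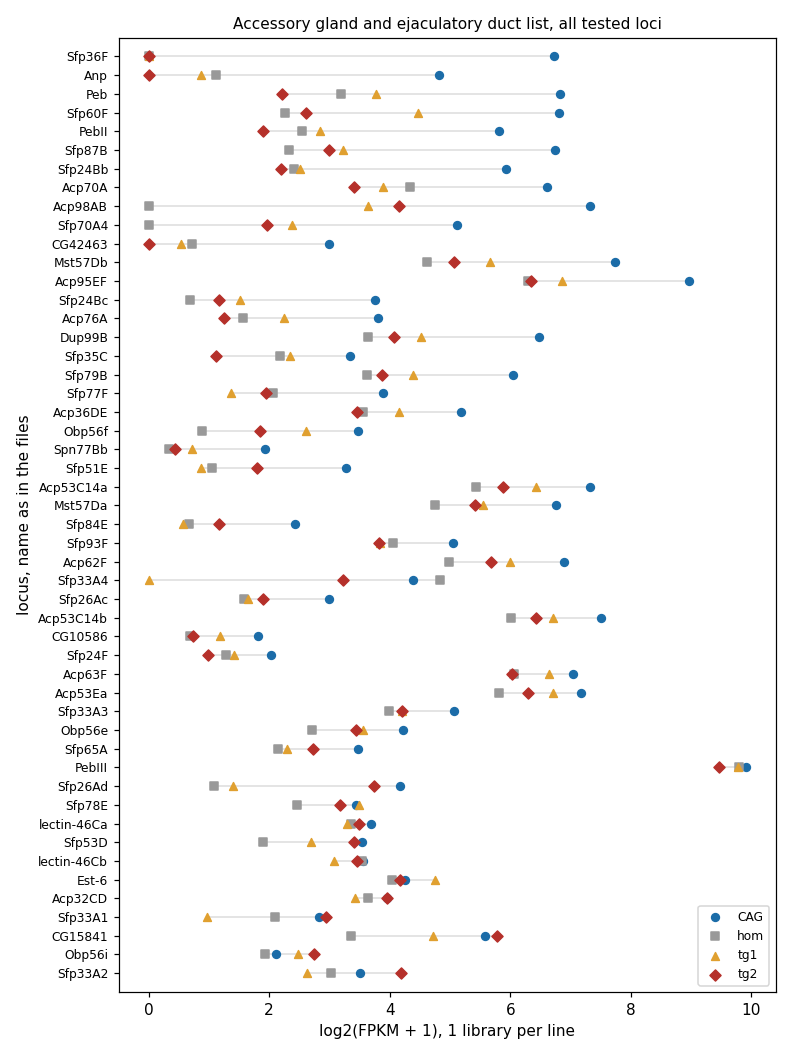
All 50 tested accessory gland and ejaculatory duct loci, each on its own line in order of the difference, with the level in the 4 libraries on the horizontal axis as log2(FPKM + 1). The blue points (CAG) lie furthest right at 43 of the 50 loci, and the red points (tg2) lie among or left of the grey (hom) and orange (tg1) points in the upper part and beside the blue points at the bottom.

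Some genes outside the list, chosen after their values were seen, were high in CAG alone as well. Obp56g, an odorant binding protein that is part of seminal fluid, had 7.59 FPKM in tg2 against 111 in CAG, with 4.42 in hom and 13.05 in tg1, a difference of −3.70. msopa, a male-specific gene, had 11.5 FPKM in tg2 against 80.00 in CAG, with 7.76 in hom and 15.98 in tg1, a difference of −2.69. Elo68alpha, a fatty acid elongase of the male reproductive tract, had 0.329 FPKM in tg2 against 10.1 in CAG, with 0.256 in hom and 1.65 in tg1, a difference of −3.07. CAG was high and the other 3 low at each. CG13155 at 2R:8267119 to 8267931, with no assigned role, had 1.49 FPKM in tg2 against 36.8 in CAG, with 3.004 in hom and 2.22 in tg1, a difference of −3.92. A run of lipase genes on 2L lay likewise, with CG31872 at 6.62 FPKM in CAG and 0.283 in tg2, CG18284 at 4.93 and 0.206, and CG17097 at 6.62 and 0.422. CG18284 is not called with a pseudocount of 5.

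Serpins, which block serine proteases and are frequent in seminal fluid, gave 4 of 14 tested loci lower (against 2.04% of all tested loci) and 0 higher, with a median of −0.32. All 4 were loci where CAG stood above the other 3, and Acp76A and Spn77Bb of these are in the seminal fluid list as well. Spn2 had 0.462 FPKM in tg2 against 8.71 in CAG, with 0.223 in hom and 1.05 in tg1, a difference of −2.73, and Spn3 had 3.09 FPKM in tg2 against 18.6 in CAG, with 4.80 in hom and 6.06 in tg1, −2.26. The most abundant serpin, Spn27A, which restrains melanization, was near equal with 38.1 FPKM in CAG and 37.02 in tg2. Of the 14 loci 11 lay below 0.

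The testis did not share this order. None of 40 tested testis and sperm loci was called (0 of 40, against 3.65% of all tested loci), their median was 0.34, and 35 lay above 0. tg2 was the highest library at 31 of the 40, and at 30.2% of all tested loci. Summed over the 40 loci, the level was 5259 FPKM in tg2 and 3799 in CAG, while hom had 3919 and tg1 4194. The sperm tail gene dj had 194 FPKM in tg2 against 106 in CAG, with 102 in hom and 145 in tg1, a difference of 0.87. ocn had 370.3 FPKM in tg2 against 191 in CAG, with 199 in hom and 269.5 in tg1, 0.95, the largest of the list. Mst87F, also a sperm tail gene, had 859.6 FPKM in tg2 against 628 in CAG, with 594 in hom and 645 in tg1, 0.45. In all 3 tg2 was highest and CAG and hom were close together. Genes that act earlier, in the meiotic programme, were nearer to equal, with 95.1 FPKM of bol in CAG and 102 in tg2 and with 9.50 and 8.97 of twe. Testis transcripts thus lay on the other side from those of the glands, and their part in the seminal fluid differences was not tested.

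Y-linked fertility genes, transcribed in spermatocytes, lay on the same side as the testis list. Of 17 tested loci 14 lay above 0, with a median of 0.43, and 1 was called higher (5.88%, against 1.61% of all tested loci). kl-5, a dynein heavy chain of the sperm tail, had 19.9 FPKM in tg2 against 6.43 in CAG, with 6.09 in hom and 8.97 in tg1, a difference of 1.49, and tg2 stood above the other 3 there. A further piece of kl-5 in the gene table, CG41497, had 1.56 FPKM in CAG and 3.37 in tg2. These loci are fragments of long genes on incompletely assembled sequence, and several carry pieces of 1 gene.

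Osiris genes, a cluster on 3R for membrane proteins of cells that shape cuticle, were among the largest differences on the higher side. Of 24 loci 10 passed the filter and 14 did not. Of the 10, 4 were called higher in tg2 and 0 lower (40% higher, against 1.61% of all tested loci), with a median of 0.87. That median rests on which loci pass the filter. It was 0.01 with no filter and 3.03 with a filter of 5 FPKM.

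The 4 called genes lie within 3R:2127528 to 2167146. Osi20, at 3R:2165819 to 2167146, had 63.2 FPKM in tg2 against 4.43 in CAG, with 39.5 in hom and 78.01 in tg1, a difference of 3.56 or 11.8-fold. Osi15 had 85.6 FPKM in tg2 against 8.67 in CAG, with 61.4 in hom and 98.03 in tg1, 8.96-fold higher. Osi19 had 25.5 FPKM in tg2 against 2.12 in CAG, with 15.3 in hom and 33.6 in tg1, 8.51-fold higher, and Osi18 had 20.3 FPKM in tg2 against 1.70 in CAG, with 10.9 in hom and 23.4 in tg1, 7.89-fold higher. At all 4 CAG was the low library and tg1 the highest, with tg2 just under tg1. Osi7 was low everywhere and close between the lines, with 1.62 FPKM in CAG and 1.33 in tg2. Osi2 (0.82) and Osi9 (0.92) were short of the call, and Osi8 lay lowest at −0.43.

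**Figure D3:**
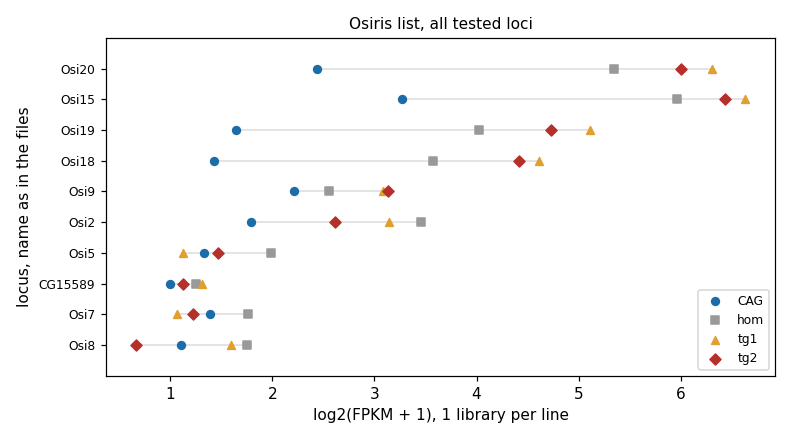
Osiris loci that passed the filter, with the level in each of the 4 libraries as log2(FPKM + 1), 1 library per line. At Osi15, Osi18, Osi19 and Osi20 the CAG point lies at least 1 below the other 3, and at the remaining loci the 4 points lie close together at low levels or CAG and tg2 differ by under 1.

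Cuticle proteins, which bind chitin and form the exoskeleton, differed in both directions. Of 74 tested loci 9 were called higher in tg2 (against 1.61% of all tested loci) and 6 lower (against 2.04%), with a median of −0.16, and a pseudocount of 5 left 2 and 2. The higher ones included Cpr64Ab, with 395 FPKM in tg2 against 124 in CAG, with 492 in hom and 383 in tg1, a difference of 1.66, and the Tweedle protein gene TwdlBeta, with 51.8 FPKM in tg2 against 18.6 in CAG, with 74.5 in hom and 61.9 in tg1, 1.43. CAG was the low library at both. Lcp4, a larval cuticle gene, had 4.32 FPKM in tg2 against 0.962 in CAG, with 0.890 in hom and 1.88 in tg1, and here tg2 was highest. Lcp4 and, among the lower loci below, Cpr78E are no longer called with a pseudocount of 5.

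On the lower side, Acp1, an adult cuticle protein gene that only shares its prefix with the gland genes, had 37.3 FPKM in tg2 against 115 in CAG, with 135 in hom and 97.4 in tg1, a difference of −1.60. Cpr78E had 1.25 FPKM in tg2 against 6.70 in CAG, with 6.51 in hom and 8.83 in tg1, −1.77. tg2 stood below the other 3 at both. Cpr49Ac had 8.67 FPKM in tg2 against 23.7 in CAG, with 79.7 in hom and 9.65 in tg1, so tg1 and tg2 lay together below CAG, and hom was far above. The most abundant cuticle genes were lower in tg2 without reaching the call, with 2855 FPKM of Acp65Aa in CAG and 1831 in tg2, and 1695 and 1109 of Cpr49Ae. Summed over the 74 loci the level was 9624 FPKM in tg2 and 12007 in CAG, while hom had 16864 and tg1 14340. Of 28 tested loci for chitin synthesis and remodelling 1 was called higher (0 with a pseudocount of 5) and 0 lower, with a median of −0.28. That is 3.57% higher, against 1.61% of all tested loci. Of 23 loci for tanning and pigment 0 were called, against 3.65% of all tested loci.

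Further loci outside the Osiris and cuticle lists, chosen after their values were seen, were low in CAG alone. CG14147 had 112 FPKM in tg2 against 19.5 in CAG, with 202 in hom and 167 in tg1, 5.53-fold higher in tg2 than in CAG. CG18180, a predicted serine protease, had 122 FPKM in tg2 against 15.03 in CAG, with 1309.8 in hom and 80.2 in tg1, and its neighbour CG18179 had 21.5 FPKM in tg2 against 1.27 in CAG, with 155 in hom and 4.69 in tg1. These 2 share a span with other loci, and hom was far above the rest at both. The metallothionein MtnC, which binds copper, had 66.5 FPKM in tg2 against 19.02 in CAG, with 55.4 in hom and 91.1 in tg1, a difference of 1.75. ect, a gene of the ectoderm, had 8.38 FPKM in tg2 against 1.86 in CAG, with 4.85 in hom and 7.21 in tg1, 1.71, and CG15887 (apn), needed for tracheal growth, had 5.93 FPKM in tg2 against 0.770 in CAG, with 3.01 in hom and 3.60 in tg1, 1.97. TepI, a thioester protein that can bind microbes, had 3.47 FPKM in tg2 against 0.556 in CAG, with 9.35 in hom and 5.68 in tg1, 1.52. A pseudocount of 5 in place of 1 ended the calls of ect, CG15887 and TepI. Low CAG and spread among the other 3 was common to these genes.

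tg2 stood apart from all 3 other libraries at 51 protein-coding loci with no 0, 19 above and 32 below. phr, the photolyase gene that repairs ultraviolet damage to DNA, had the largest gap above the other 3. At 2R:3712997 to 3716181 it had 17.8 FPKM in tg2 against 1.10 in CAG, with 1.29 in hom and 1.06 in tg1, a difference of 3.16 or 8.95-fold. phr shares its span with Prosalpha1, the gene listed at 0 in every library, so the split of fragments between them is uncertain. Of its neighbours CG30383 just before it lay on the same side without reaching the call, with 2.36 FPKM in tg2 against 0.909 in CAG, with 0.669 in hom and 0.487 in tg1, a difference of 0.81. Those further out were not called, with cathD at 213 FPKM in CAG and 279 in tg2 and Dgk at 13.9 and 11.6.

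Further loci in which tg2 alone was high follow. CG34367 had 8.89 FPKM in tg2 against 1.24 in CAG, with 1.01 in hom and 1.58 in tg1, 4.41-fold higher than in CAG. CG32984 had 4.23 FPKM in tg2 against 0.140 in CAG, with 0.182 in hom and 0.202 in tg1, and AttD, an attacin that acts against bacteria, had 4.06 FPKM in tg2 against 0.166 in CAG, with 0.219 in hom and 0.570 in tg1. CG32984 and AttD passed the filter through tg2 alone, so their low values elsewhere are no separate result. A pseudocount of 5 ended both calls. Metallothionein gene CG42872 (MtnE) had 45.6 FPKM in tg2 against 16.3 in CAG, with 10.4 in hom and 16.8 in tg1, so tg2 was above a common level of the other 3. The histone H1 copy His1:CG33834 had 7.90 FPKM in tg2 against 1.08 in CAG, with 1.12 in hom and 0.813 in tg1, but it is 1 of many near-identical copies in 1 span and its value is uncertain.

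On the lower side, among loci with no 0, CG13962 had the largest gap, with 0.938 FPKM in tg2 against 18.1 in CAG, with 179 in hom and 25.5 in tg1, a difference of −3.30. It lies on 2L among genes for spliceosomal RNAs, and some of those were low in tg2 as well. snRNA:U5:38ABb had 137 FPKM in tg2 against 690.5 in CAG, with 536 in hom and 306 in tg1, a difference of −2.33, and snRNA:U5:38ABa had 784 FPKM in tg2 against 1924 in CAG, with 2298 in hom and 3564 in tg1, −1.29. Of the 2 loci named snRNA:U2:38ABb the 1 at 2L:19815614 to 19815805 had 74.4 FPKM in CAG and 19.3 in tg2, and the 1 at 2L:19812646 to 19812836 had 47.1 and 67.3. snRNA:U4:38AB, at the edge of the group, had 2796 and 1819 FPKM and was not called. Copies of these RNAs elsewhere are near-identical, so fragments may be shared among them.

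nimC1, a phagocytosis receptor of blood cells, had 2.11 FPKM in tg2 against 17.6 in CAG, with 15.4 in hom and 17.9 in tg1, a difference of −2.58. CAG, hom and tg1 were close together and tg2 far below. It lies at 2L:13974117 to 13976753 in a row of related genes that did not follow. nimB5 just before it had 22.1 FPKM in CAG and 29.2 in tg2, Cyp28a5 just after it had 16.6 and 14.3, and nimC2 had 9.67 and 8.54. He (Hemese), a blood cell surface gene in the same row, went the other way with 4.49 FPKM in tg2 against 0.884 in CAG, with 0.862 in hom and 1.18 in tg1, a difference of 1.54. He shares its span with nimB5.

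Over the 25 tested loci of the blood cell list 2 were called higher and 2 lower, with a median of 0.06. Each count is 8%, against 1.61% higher and 2.04% lower over all tested loci. Besides nimC1 the lower call was proPO-A1, a phenoloxidase of the melanizing blood cells, with 1.79 FPKM in tg2 against 5.64 in CAG, with 9.73 in hom and 7.07 in tg1, in a span of 6 loci. With a pseudocount of 5 nimC1 was the 1 call left of the 4, and without loci of shared span 1 higher and 1 lower were left. Defining genes of the main blood cell type were near equal, with Hml at 52.8 FPKM in CAG and 57.5 in tg2, eater at 19.4 and 24.97, and the blood cell factor srp at 11.1 and 9.92.

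Npc1a, which moves sterols out of the endosome, had 12.01 FPKM in tg2 against 52.3 in CAG, with 50.8 in hom and 54.1 in tg1, 4.09-fold lower in tg2. It lies at 2L:10213820 to 10220957, and both neighbours were near equal, CG4901 with 4.91 FPKM in CAG and 6.30 in tg2 and the proteasome gene Pros35 with 79.9 and 85.99. Its partner Npc2a had 83.5 and 89.7. Adh, the alcohol dehydrogenase of the fat body, had 238 FPKM in tg2 against 682 in CAG, with 655 in hom and 764 in tg1, a difference of −1.52. Lectin-galC1, a galactose-binding lectin, had 84.9 FPKM in tg2 against 259 in CAG, with 269.6 in hom and 313 in tg1, −1.60. CG9928 had 1.31 FPKM in tg2 against 15.3 in CAG, with 31.9 in hom and 35.3 in tg1, −2.82. At all of these tg2 was the low library and the other 3 were at least 2-fold above it.

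3 protein-coding loci were listed at 0 in tg2 and were well expressed in the others, and they were picked after their values had been seen. zormin, a gene for a muscle Z-disc protein, had 66.3 FPKM in CAG, 48.3 in hom and 61.98 in tg1. CG31140 had 67.1, 60.8 and 61.1, and CG42817 had 42.5, 35.97 and 44.9. Whether these are losses or failed estimates was not tested. Loci at 0 in CAG include bt, the muscle protein projectin, listed at 0 in CAG and hom with 496 FPKM in tg1 and 504 in tg2.

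**Figure D4:**
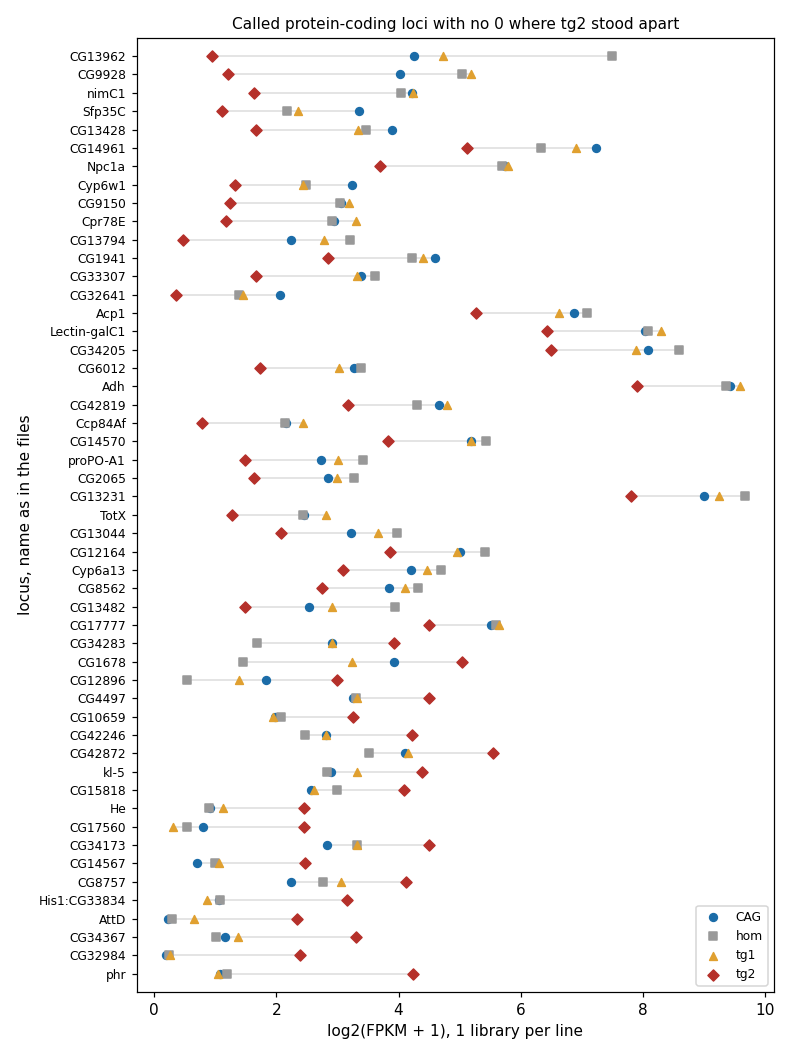
The 51 called protein-coding loci with no 0 at which tg2 (red) lay at least 1 from each of CAG (blue), hom (grey) and tg1 (orange), on a log2(FPKM + 1) axis with 1 library per line. The 32 upper loci have tg2 furthest left and the 19 lower ones have it furthest right, and at nimC1, Npc1a and phr the other 3 libraries nearly coincide.

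At some loci tg1 and tg2 lay together and hom lay with CAG. sif, a Rac activator of synapses, had 40.5 FPKM in tg2 against 7.36 in CAG, with 11.3 in hom and 29.9 in tg1, a difference of 2.31. CG42637 had 31.2 FPKM in tg2 against 3.61 in CAG, with 1.77 in hom and 20.7 in tg1, 2.80. Both names stand at further loci of the same span that were not called, with 23.5 FPKM in CAG and 33.2 in tg2 and with 11.2 and 21.5 for sif, and with 13.6 and 15.2 for CG42637. Obp56a, an odorant binding protein gene, had 88.1 FPKM in tg2 against 33.2 in CAG, with 31.96 in hom and 109 in tg1, 1.38. In these 3 tg1 and tg2 were the high libraries. In the other direction Cyp6a20, a cytochrome P450 gene known for its link to male aggression, had 13.2 FPKM in tg2 against 91.04 in CAG, with 79.1 in hom and 11.98 in tg1, a difference of −2.69. Oatp58Db, an organic anion transporter gene, had 1.01 FPKM in tg2 against 11.5 in CAG, with 10.1 in hom and 0.914 in tg1, −2.63, and Oda, the antizyme of ornithine decarboxylase, had 1.97 FPKM in tg2 against 11.97 in CAG, with 11.5 in hom and 2.36 in tg1, −2.13. Oda has a second locus on the same span with 591 FPKM in CAG and 692 in tg2, so this call concerns the minor of the 2 values. Genes beside Cyp6a20 in its cluster did not share this, with 9.14 FPKM of Cyp6a21 in CAG and 10.1 in tg2 and 21.9 and 32.5 of Cyp6a9.

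Copper handling gave calls of different patterns. Of 12 tested loci MtnC and CG42872 were called higher and the copper importer gene Ctr1B lower, with 1.08 FPKM in tg2 against 6.54 in CAG, with 4.20 in hom and 1.06 in tg1, where tg1 and tg2 lay together. The Ctr1B call was lost with a pseudocount of 5, with a filter of 5 FPKM and without loci of shared span. The abundant MtnA did not differ in the same way, with 1055 FPKM in CAG and 1046 in tg2. The list median was 0.09, and 16.7% of the loci were called higher and 8.33% lower, against 1.61% and 2.04% of all tested loci.

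Immune peptides were called in both directions. Of 10 tested Bomanin loci, genes for short secreted peptides of the Toll response, 3 were lower in tg2 (against 2.04% of all tested loci) and 0 higher, and 9 lay below 0, with a median of −0.61. Summed over the 10 loci the level was 707 FPKM in tg2 and 1141 in CAG, while hom had 104 and tg1 852, so hom and not tg2 was the low library. The 3 were IM2 (79.1 FPKM in CAG and 11.7 in tg2, listed at 0 in hom), IM3 (117 and 30.2) and CG16836 (21.03 and 5.90), and CAG was the highest library at each. The most abundant member, CG15068, had 725 and 526 FPKM, short of the call. Of 17 antimicrobial peptide loci 2 were higher and 3 lower (11.8% and 17.6%, against 1.61% and 2.04% of all tested loci), with a median of −0.03. With a pseudocount of 5 the counts were 1 and 2, without AttD and CecA1. AttD and the drosomycin-like gene dro5 (33.9 and 73.6 FPKM) were higher. Anp, CecA1 (8.21 and 2.55) and IM4 (31.3 and 7.47) were lower. Drosomycin itself (Drs) had 94.9 and 84.7, and of 28 loci of the Toll and Imd pathways 0 were called (against 3.65% of all tested loci).

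Maltases, which split sugars in the gut, were lower in tg2 at 4 of 8 tested loci (against 2.04% of all tested loci), and all 8 lay below 0 with a median of −1.06. A pseudocount of 5 left 1 call and a median of −0.45. LvpH (Mal-A1) had 8.20 FPKM in tg2 against 35.97 in CAG, with 3.47 in hom and 14.3 in tg1, a difference of −2.01, with CAG above the other 3. CG30360 (Mal-A6) had 4.37 FPKM in tg2 against 12.8 in CAG, with 10.6 in hom and 4.92 in tg1, −1.36, with hom close to CAG. The most abundant, CG30359 (Mal-A5), had 56.3 FPKM in tg2 against 61.3 in CAG, with 107 in hom and 69.6 in tg1 and was not called. Over the midgut digestion list, which holds these maltases, 1 of 28 loci was higher and 5 lower (1 with a pseudocount of 5), with a median of −0.24. Those counts are 3.57% and 17.9%, against 1.61% and 2.04% of all tested loci. The higher one was the lysozyme gene LysX with 23.1 FPKM in tg2 against 5.88 in CAG, with 149.8 in hom and 9.05 in tg1.

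Hormones of eclosion leaned to higher values in tg2. Of 38 tested neuropeptide and eclosion hormone loci 28 lay above 0, with a median of 0.26, and tg2 was the highest library at 26. Over all tested loci tg2 was highest at 30.2%. Of the 38, 2 were called higher (5.26%, against 1.61% of all tested loci) and 1 lower (2.63%, against 2.04%). burs, a subunit of bursicon, the hormone that expands the wings and hardens the cuticle after eclosion, had 6.55 FPKM in tg2 against 2.56 in CAG, with 3.72 in hom and 4.67 in tg1, a difference of 1.08, and the other subunit gene, pburs, had 6.95 FPKM in tg2 against 3.15 in CAG, with 4.49 in hom and 4.79 in tg1, 0.94. In both CAG was lowest and tg2 highest. The insulin-like peptide gene Ilp3 had 7.44 FPKM in tg2 against 2.29 in CAG, with 5.08 in hom and 6.41 in tg1, 1.36. A pseudocount of 5 left neither burs nor Ilp3 called, and a filter of 5 FPKM left 1 of them. Eh, the eclosion hormone gene, had 4.81 FPKM in CAG and 5.80 in tg2, and ETH had 9.14 and 11.4. Nplp3 was lower, with 103 FPKM in tg2 against 229 in CAG, with 18.9 in hom and 31.6 in tg1, and CAG was highest with tg2 next.

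Neuronal and eye genes leaned the same way by less. Of 25 neuronal loci 22 lay above 0 and tg2 was highest at 21 (30.2% over all tested loci), with a median of 0.19. The 1 call (4%, against 1.61% higher over all tested loci) was the RNA-binding protein gene fne with 11.5 FPKM in tg2 against 5.03 in CAG, with 4.34 in hom and 8.89 in tg1, 1.05. With a pseudocount of 5 fne lay at 0.72 and 0 neuronal loci were called. Snap25, which acts where synaptic vesicles fuse, had 125 FPKM in tg2 against 76.5 in CAG, with 57.5 in hom and 86.96 in tg1, 0.70. Of 28 photoreceptor loci 1 was called higher (3.57%, against 1.61% of all tested loci), and the median was 0.10. It was ninaD, a receptor for carotenoid uptake, with 95.9 FPKM in tg2 against 44.3 in CAG, with 46.6 in hom and 48.1 in tg1. For glia 0 of 13 loci were called (against 3.65% of all tested loci), with a median of −0.17.

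Storage and metabolic genes were mostly near equal or a little lower. Of 24 fat body loci 0 were higher and 2 lower (8.33%, against 2.04% of all tested loci), with a median of −0.24. The lower loci were Adh and CG6188 (Gnmt, a methyl donor enzyme), the latter with 2.89 FPKM in tg2 against 6.92 in CAG, with 6.41 in hom and 5.97 in tg1. A pseudocount of 5 took CG6188 under the call, and leaving out shared spans left 1 of the 2. The hexamerins Lsp1alpha, Lsp1beta and Lsp1gamma lay at −0.998, −0.84 and −0.89, all short of the call, and Lsp2 at −0.11. Among 55 cytochrome P450 loci 3 were lower (5.45%, against 2.04% of all tested loci) and 0 higher, with a median of −0.32. They were Cyp6a20, Cyp6w1 with 1.51 FPKM in tg2 against 8.38 in CAG, with 4.61 in hom and 4.44 in tg1 and Cyp6a13 with 7.50 FPKM in tg2 against 17.5 in CAG, with 24.7 in hom and 21.00 in tg1, and tg2 was alone at the low end of the last 2. Cyp6a13 is not called with a pseudocount of 5. Muscle loci had a median of −0.19 over 31. The only call of that list was bt (3.23%, against 1.61% higher over all tested loci), which is listed at 0 in CAG and hom. zormin is not in the list. The actin genes Act87E (2496 FPKM in CAG and 1344 in tg2) and Act57B (3616 and 2276) were among the largest falls in FPKM. Among the largest rises were the flight muscle actin Act88F (5719 and 6415), TpnC4 (1346 and 2084) and Scp1 (6548 and 9461). None was called among 75 cytosolic ribosomal protein loci (median −0.15), 68 mitochondrial ones (0.06), 41 proteasome loci (−0.21), 29 glutathione transferases (−0.08), 20 heat shock proteins (−0.16), 18 ecdysone response loci (−0.11) and 10 glycolytic loci (−0.01). Over all tested loci 3.65% were called, a share at which the shorter of these lists may hold no call.

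Female germ line and piRNA genes were measured in whole animals of unstated sex. Of 30 tested loci 0 were called (against 3.65% of all tested loci), with a median of 0.10 and 17 above 0. osk, which assembles germ plasm, had 7.16 FPKM in tg2 against 6.22 in CAG, with 0.851 in hom and 2.21 in tg1, so CAG and tg2 were close and hom and tg1 lower. vas, a germ line helicase, had 3.40 FPKM in tg2 against 2.77 in CAG, with 0.927 in hom and 0.980 in tg1, with the same order.

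**Figure D5:**
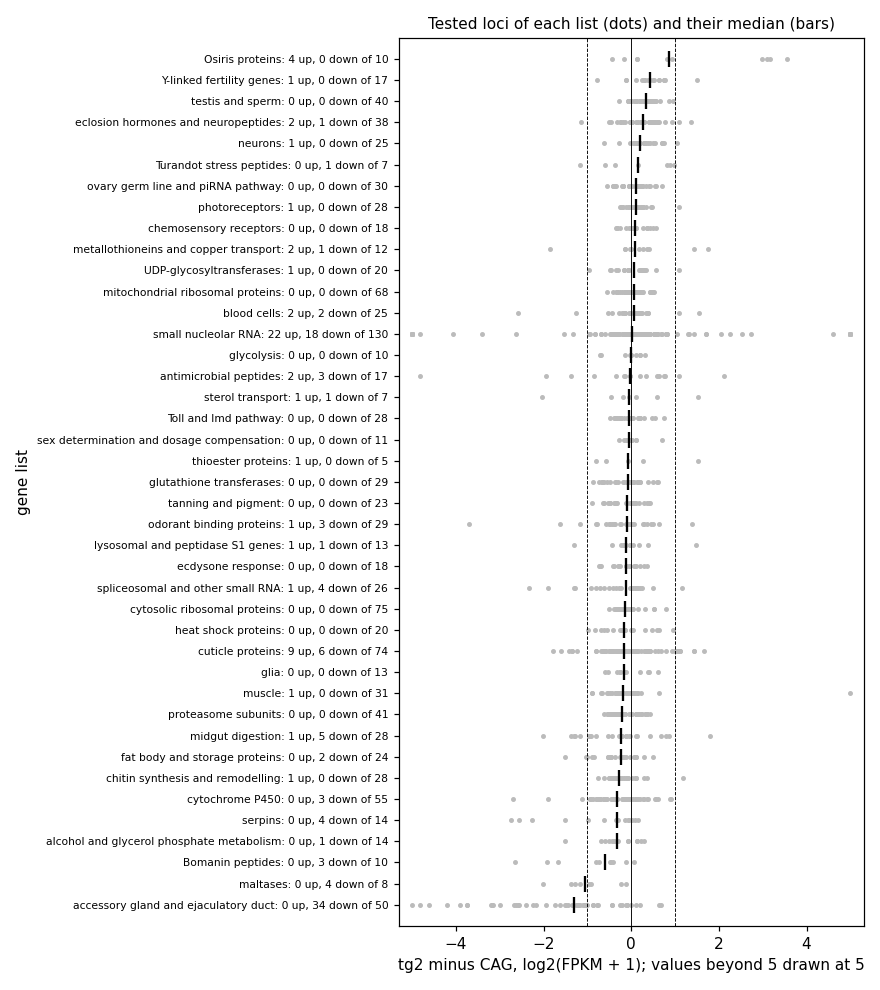
Difference of tg2 from CAG, in log2(FPKM + 1), for every tested locus (dots) of each gene list, with the list median as a bar and values beyond 5 drawn at 5; the row labels give how many loci were called in each direction. The Osiris row reaches furthest right among protein-coding lists by its median (0.87) and the accessory gland row furthest left (−1.31), while most other medians lie within 0.3 of 0.

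Small nucleolar RNAs, which guide the modification of ribosomal RNA, had a high share of calls in both directions. Of 125 such loci 22 were higher and 16 lower (30.4%, against 3.65% of all tested loci), with a median of 0.01. In 12 of the higher calls CAG was listed at 0 and in 12 of the lower calls tg2 was. Among the 83 with no 0 in any library 9 were higher and 3 lower. Selected by name rather than by gene type, the list holds 130 loci with 22 higher and 18 lower, of which 1 and 0 were left without loci of shared span. Most such RNAs lie within introns and are shorter than a usual fragment, so their FPKM values are uncertain. Of 22 spliceosomal RNA loci 1 was higher and 4 lower (4.55% and 18.2%, against 1.61% and 2.04% of all tested loci).

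Calls were spread unevenly over the chromosome arms. The share called was 5.38% of 1915 loci on 2L, 4.95% of 1978 on 2R, 3.91% of 1945 on 3L, 2.37% of 2405 on 3R and 1.48% of 1626 on X. Over all tested loci it was 3.65%. The 24 calls on X became 44 with a pseudocount of 0.1 and 3 with one of 5. On these 5 arms the loci at which tg2 stood apart numbered 10 above and 19 below on 2L, 9 and 10 on 2R, 5 and 10 on 3L, 6 and 5 on 3R, and 2 and 2 on X. Such loci made up 0.338% (above) and 0.458% (below) of all tested loci. Along 2L the share called was lowest between 0 and 4 Mb (2.49%) and highest between 20 and 24 Mb (12.4% of 178 loci). Calls in that last stretch include several small nucleolar RNA loci that share the span 2L:20417061 to 20423029, and the histone locus His1:CG33834.

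Chromosome 4, a small chromosome that is largely heterochromatic, leaned as a whole to higher values in tg2. Of 80 tested loci 68 lay above 0, with a median of 0.24, although bt was the only call. Over all tested loci tg2 was highest at 30.2% and tg1 at 15.7%. On chromosome 4 tg2 was the highest library at 47 loci and tg1 at 27, against 3 in CAG and 3 in hom. Median levels on the log2(FPKM + 1) scale were 5.60 in tg2 and 5.22 in CAG, while hom had 5.14 and tg1 5.46. The pooled heterochromatic scaffolds of 2L, 2R, 3L, 3R and X had 44 of 53 loci above 0, with a median of 0.32. tg2 was the highest library at 30 of these 53. By scaffold, 3 of 3 loci lay above 0 for 2L, 14 of 16 for 2R, 15 of 15 for 3L and 10 of 12 for 3R. The scaffold of X did not lean this way, with 2 of 7 loci above 0, 5 below and a median of −0.06.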

How the data were processed

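Total RNA of pharate adults from 4 lines was sequenced with 1 library each. The deposited values are FPKM, per the file headers, with 1 column per file. Tools named in the submitters' processing notes are Cufflinks, TopHat, bedtools and SAMtools, with no version, and the build is dm3. The annotation, the use of strand, the treatment of multiply mapping reads and the depth were found in none of these sources.

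Names were matched to a Release 6 gene table, which gave current symbols and gene types and no coordinates, for 11839 of 12066 single names. Positions are the authors' dm3 loci, counted from 1. Subtraction was on log2(FPKM + 1) values, so changes of low loci are understated, with a filter at a mean of 1 FPKM and a call at 1. Computation used Python 3.11.15, numpy 2.4.6 and pandas 2.3.3, and was tested on simulated data. The comparison, the members and the gene lists were chosen with earlier results of these data known, and the lists were trimmed after values were seen. The rule for named genes took the 15 largest differences per direction among protein-coding loci with no 0, the extreme and most abundant members of each list, the 5 largest differences in FPKM per direction, and the 3 loci per direction where tg2 or CAG lay furthest from the others. The text gives only some of these, and other genes in it were chosen after their values were seen. Alternatives were other pseudocounts, filters and scalings, and subsets of loci.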

Additional observations from a re-analysis of the deposited data

How the results depend on the processing

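With a pseudocount of 5 the loci higher in tg2 numbered 66 in place of 162 and the lower ones 104 in place of 205. A filter at a mean of 5 FPKM gave 136 lower. Leaving out every locus whose span another locus has too, an alternative added after the data had been seen, gave 102 higher and 136 lower. These subsets hold fewer loci. The other 15 counts, under a pseudocount of 0.1, no filter, median centring, trimmed mean scaling, leaving out zeros, protein-coding loci alone and leaving out 2L, were within 1.5 times of the values reported. No called difference of a named gene changed its sign under the settings run. Of the named genes' differences under 4 settings 16 calls were lost, all with a pseudocount of 5, and 7 were gained, all with a pseudocount of 0.1. The scaling factors of tg2 against CAG were −0.006 (median) and −0.018 (trimmed mean) on the log2 scale. Without shared spans the accessory gland list had 22 loci lower in place of 34, and with a pseudocount of 5 its median was −1.01. Serpins had 2 loci lower in place of 4 with the filter of 5 FPKM. Maltases had 2 in place of 4 with that filter and 2 without shared spans. No paired analysis was possible because each line has 1 library and no test was run, and no library could be left out. The absolute depth of the libraries is unknown, so low values carry an unknown counting error.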

Other observations

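Loci with several joined names or with no name took no part in the counts of the report. Of 722 loci with no name 95 were higher in tg2 than in CAG and 53 lower, with a median of 0.22. Those are 13.2% and 7.34%, against 1.61% and 2.04% of the tested single-name loci. Of 916 loci with joined names 6 were higher (0.655%) and 15 lower (1.64%), both under the shares of single-name loci, with a median of 0.01. The locus of the drosomycin-like genes dro3 and dro4 had 266 FPKM in tg2 and 39.5 in CAG, with 1094 in hom and 136 in tg1. The locus of Cyp4p1, Cyp4p2 and Cyp4p3, cytochrome P450 genes on 2R, had 12.7, 11.6, 9.84 and 51.7 FPKM in CAG, hom, tg1 and tg2, so tg2 alone was high. The locus of CG8534 and eloF, fatty acid elongase genes on 3R, had 114, 70.5, 138 and 45.1 FPKM in that order, with tg2 lowest. Seminal fluid loci with joined names lay on the side of the accessory gland list, with 32.5, 10.1, 9.12 and 8.17 FPKM at the locus of CG42465, CG42467 and Sfp24C1 and with 109 FPKM in CAG and 48.9 in tg2 at that of Mst57Dc and Sfp96F, while the locus of Acp26Aa and Acp26Ab had 20.2 in CAG and 19.9 in tg2.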
